A study of Mus musculus with 12 samples.

Results

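The genes described here are Col1a1, Col1a2, Col3a1, Bgn, Postn, Lox, Tagln, S100a4 and S100a6, 9 of the 37620 genes counted. They were listed by name as matrix and mesenchymal genes whose reads were lower in neural stem cells without E12 than in wild-type cells of the same line. They were thus selected on their measured levels in the E12 line, and those levels are given as a description with no test. The E47 line was not used for that choice.

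RNA was sequenced from neural stem cells of C57BL/6J mouse embryos (E14.5), grown as dividing cultures with 20 ng/ml FGF-2 and 20 ng/ml EGF. The 4 groups, with 3 libraries each, were E12+/+ (E12wt) and E12-/- (E12KO) cells, and E47+/+ (E47wt) and E47-/- (E47KO) cells, each wild type being a litter mate of its knockout. E12 and E47 are E proteins, transcription factors of the basic helix-loop-helix class, and both are splice forms of Tcf3; the labels name only the deleted form. The labels do not say if replicates are different embryos or cultures, so p-values measure the spread between these libraries, which may be technical.

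Type I collagen, built from the chains of Col1a1 and Col1a2, and type III collagen, built from Col3a1, form the fibrils of connective tissue. Biglycan (Bgn) is a proteoglycan that binds these fibrils, periostin (Postn) is a secreted protein that helps to assemble them, and lysyl oxidase (Lox) crosslinks them. In the developing brain such genes are known mainly from the meninges and the cells around vessels, while neural progenitors make a matrix rich in tenascin and chondroitin sulfate proteoglycans. Tagln encodes transgelin, an actin-binding protein of smooth muscle and myofibroblasts, and S100a4 and S100a6 encode small calcium-binding proteins found in many mesenchymal cells.

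Each library held 34515297 to 56835783 reads on genes. Levels are in CPM, reads scaled to the size of each library, and a floor of 3 reads lay between 0.0528 and 0.0869 CPM. Tcf3 was present in every library, at 75.8 to 82.4 CPM in E12wt, 72.9 to 101 CPM in E12KO, 75.8 to 97.1 CPM in E47wt and 106 to 117 CPM in E47KO. These counts do not separate the splice forms and so do not check the labels. Transcripts of the Y chromosome were found in E47KO, at a sum of 197 to 239 CPM, and in E47wt replicate 2, at 246 CPM. The remaining 8 libraries had 0.410 CPM or less.

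E proteins bind the hexamer CANNTG, the E-box, so the stretch before the transcription start of the members was searched for it. The pattern reads alike on both strands. RefSeq promoters of build GRCm38.p6 held 7 start sites for 6 of the 9 genes, and the 250 bases before each start were used. The hexamer was present in 3 of these 7 windows, against 66.2% of 32807 promoters of the same length. The form CAGCTG was present in 1 of 7 (13% of all promoters) and the form CAGGTG or CACCTG in 0 of 7 (17.2% of all promoters). No match says only that these letters are not in this window. The 3 windows with a match are shown with that of Col1a2, which has none, since Col1a2 has the largest ratio between wild type and knockout in the E12 line. Capitals mark each CANNTG, and each window is written 5′ to 3′ on the strand of its gene.
Col1a2, chr6:4505368-4505617, plus strand: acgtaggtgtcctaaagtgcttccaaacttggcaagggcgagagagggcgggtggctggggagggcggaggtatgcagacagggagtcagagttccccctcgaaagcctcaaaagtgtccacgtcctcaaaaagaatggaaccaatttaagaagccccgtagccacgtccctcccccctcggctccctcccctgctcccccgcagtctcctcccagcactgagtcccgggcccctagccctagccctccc
Col3a1, chr1:45311288-45311537, plus strand: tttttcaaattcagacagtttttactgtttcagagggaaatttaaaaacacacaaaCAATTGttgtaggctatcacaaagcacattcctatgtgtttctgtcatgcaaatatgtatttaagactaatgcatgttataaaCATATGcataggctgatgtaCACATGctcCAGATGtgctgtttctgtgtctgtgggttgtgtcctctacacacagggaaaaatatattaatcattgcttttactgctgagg
Bgn, chrX:73483351-73483600, plus strand: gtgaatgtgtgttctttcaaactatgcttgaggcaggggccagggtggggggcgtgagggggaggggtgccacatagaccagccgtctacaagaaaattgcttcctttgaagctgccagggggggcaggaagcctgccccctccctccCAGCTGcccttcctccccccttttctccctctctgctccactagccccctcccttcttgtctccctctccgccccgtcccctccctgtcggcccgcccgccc
S100a6, chr3:90612644-90612893, plus strand: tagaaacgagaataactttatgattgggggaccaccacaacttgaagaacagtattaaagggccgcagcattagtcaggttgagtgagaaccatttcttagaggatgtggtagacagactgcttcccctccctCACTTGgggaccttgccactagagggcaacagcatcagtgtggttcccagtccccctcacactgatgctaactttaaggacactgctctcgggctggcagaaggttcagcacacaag
The Bgn window holds a CAGCTG whose first base lies at position -102 from the start. The 4 matches in the Col3a1 window start at -194, -111, -91 and -82, and the match in the S100a6 window at -117.

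Col1a2 was close to absent from the E12 knockout. Its reads numbered 77, 114 and 70 in the E12wt libraries and 1, 3 and 2 in the E12KO libraries (replicates 1 to 3), or 2.03 ± 0.658 and 0.0491 ± 0.0251 CPM (mean ± SD, n = 3). In the E47 line they numbered 144, 2 and 4 in wild type and 0, 3 and 9 in knockout. All 3 E12KO libraries were at or under the floor. So were E47wt replicate 2 and E47KO replicates 1 and 2, whereas E47wt replicate 1 was above every E12wt library.

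Col1a1, which encodes the other chain of type I collagen, kept a measurable level in every library. Reads numbered 160, 158 and 172 in E12wt and 40, 39 and 50 in E12KO, or 3.78 ± 0.251 and 1.05 ± 0.117 CPM (mean ± SD, n = 3). Among E47 libraries they numbered 253, 48 and 34 in wild type and 71, 52 and 55 in knockout. The E12 groups did not overlap, and E47wt replicate 1, at 6.92 CPM, stood above all other libraries of both lines. The remaining 5 E47 libraries lay between 0.724 and 1.69 CPM, next to the E12KO range of 0.975 to 1.19 CPM.

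The balance of the 2 chains differed between the same libraries. Per base of transcript, Col1a1 had 1.87, 1.25 and 2.22 times the reads of Col1a2 in E12wt replicates 1 to 3 and 1.59 times in E47wt replicate 1. In E12KO the ratio was 36.1, 11.7 and 22.6, with 95% counting intervals of 6.11 to 1460, 3.73 to 59.3 and 5.92 to 191. In E47wt replicates 2 and 3 it was 21.6 (5.67 to 184) and 7.67 (2.73 to 29.7). E47KO replicate 1, with 0 Col1a2 reads, gave 21.3 when Col1a2 was set to the floor of 3 reads, with a lower 95% counting limit of 16.9. The ratio was 15.6 (5.06 to 78.3) and 5.51 (2.70 to 12.7) in E47KO replicates 2 and 3. Col1a1 thus had more reads than Col1a2 in every library, and by a larger ratio where type I collagen reads were few.

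Col3a1 followed Col1a2 at lower read numbers. There were 25, 41 and 19 reads in E12wt against 1, 1 and 2 in E12KO, or 0.663 ± 0.299 and 0.0325 ± 0.0130 CPM (mean ± SD, n = 3). The E47 line had 46, 8 and 4 reads in wild type and 6, 4 and 11 in knockout. Again the highest library was E47wt replicate 1, at 1.26 CPM. For Col3a1, 9.68% of the strand-assigned reads of all libraries lay on the strand that does not carry the gene, against 0.176% for Col1a1 and 0.464% for Col1a2.

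Transcripts for the proteins that bind, assemble and crosslink collagen fibrils were also highest in the E12wt libraries and E47wt replicate 1. Bgn reads numbered 99, 108 and 76 in E12wt and 7, 9 and 8 in E12KO, or 2.19 ± 0.443 and 0.196 ± 0.0259 CPM (mean ± SD, n = 3). Among E47 libraries Bgn had 99, 11 and 17 reads in wild type and 5, 37 and 29 in knockout. Bgn was thus higher in E47KO replicates 2 and 3, at 1.02 and 0.516 CPM, than in E47wt replicates 2 and 3, at 0.237 and 0.362 CPM.

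Postn had the sharpest split in the E47 line. Its reads numbered 65, 68 and 29 in E12wt and 2, 2 and 5 in E12KO, or 1.25 ± 0.518 and 0.0728 ± 0.0398 CPM (mean ± SD, n = 3). In E47wt they numbered 51, 2 and 0, and each E47KO library had 1. E47wt replicate 1 alone was above the floor in that line.

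Lox had 106, 50 and 49 reads in E12wt and 9, 8 and 3 in E12KO, or 1.56 ± 0.659 and 0.165 ± 0.0822 CPM (mean ± SD, n = 3). E47 libraries had 41, 20 and 5 reads in wild type and 8, 17 and 3 in knockout. Here E12wt replicate 1 was highest, at 2.32 CPM, and E47wt replicate 1, at 1.12 CPM, was just below the lowest E12wt library, at 1.13 CPM.

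Tagln, the actin-binding member, was present at over 50 reads everywhere. Reads numbered 158, 141 and 207 in E12wt and 94, 76 and 55 in E12KO, or 3.90 ± 0.771 and 1.85 ± 0.519 CPM (mean ± SD, n = 3). E47 libraries had 140, 86 and 52 reads in wild type and 165, 114 and 101 in knockout. E47KO replicate 1, at 3.94 CPM, was above E47wt replicate 1, at 3.83 CPM, which makes Tagln the 1 member for which E47wt replicate 1 was not the highest E47 library. Of the strand-assigned reads at Tagln, 46.5% lay on the strand that does not carry the gene, so counts that ignore strand mix in other transcription there.

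The 2 calcium-binding genes, both on chromosome 3, differed in the size of their ratio. S100a6 had 55, 43 and 28 reads in E12wt and 2, 8 and 4 in E12KO, or 0.967 ± 0.287 and 0.115 ± 0.0770 CPM (mean ± SD, n = 3), and 54, 11 and 4 in E47wt against 6, 17 and 5 in E47KO. S100a4 had 11, 17 and 31 reads in E12wt and 6, 8 and 12 in E12KO, or 0.458 ± 0.241 and 0.211 ± 0.0685 CPM (mean ± SD, n = 3), and 26, 10 and 2 in E47wt against 7, 12 and 12 in E47KO. For S100a4 alone the E12 groups overlapped: E12wt replicate 1, at 0.241 CPM, was below E12KO replicate 3, at 0.285 CPM.

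**Figure D1:**
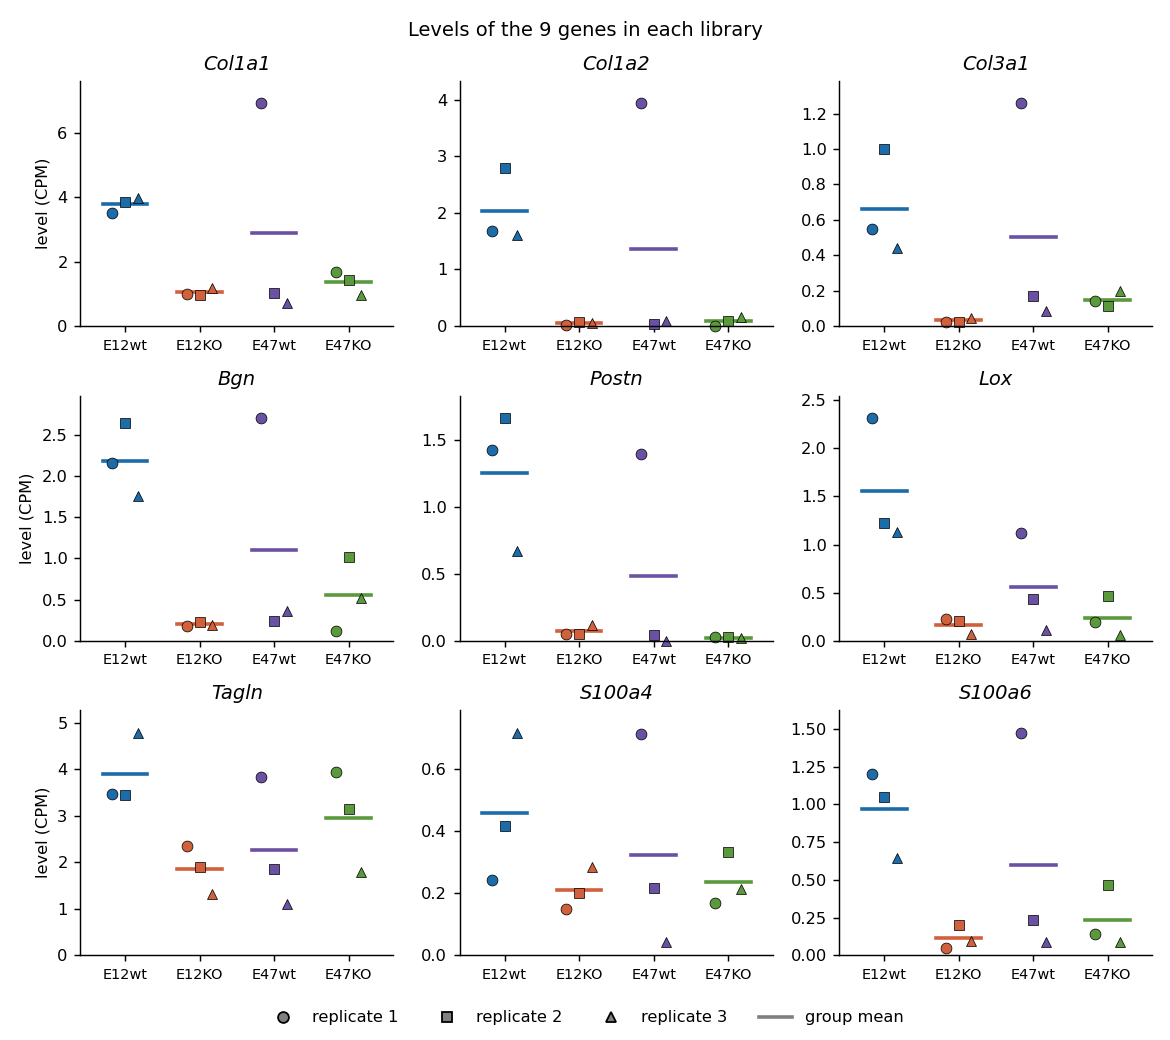
Level in CPM (vertical axes, linear, from 0) of the 9 genes in the 12 libraries, by group (horizontal axes), with a symbol for each replicate and a line for the group mean. E47wt replicate 1 (purple circle) sits among or above the E12wt libraries for 8 genes and just below them for Lox.

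Scaled for depth, the reads summed over the 3 libraries of a group were 41.0 times higher in E12wt than in E12KO for Col1a2 (95% counting interval 18.6 to 113). The ratio was 20.0 for Col3a1 (7.53 to 75.1), 17 for Postn (8.71 to 37.7), 11.1 for Bgn (7.31 to 17.6), 9.65 for Lox (6.09 to 16.1) and 8.47 for S100a6 (4.87 to 15.9). For Col1a1 it was 3.58 (2.94 to 4.38), for S100a4 2.14 (1.33 to 3.53) and for Tagln 2.12 (1.81 to 2.49). These intervals cover counting error only. The E12KO libraries lay below all E12wt libraries for 8 of the 9 genes, as they did for 7.17% of all genes tested in that line, and the genes were listed for this difference. Over all genes of that line, edgeR called 0.0271% lower in E12KO, and nothing is read from either share. In the authors' deposited table of the E12 line, which leaves out genes of low mean signal, 3 of the 9 are present, with log2 fold changes of −1.85 for Col1a1 (their SE 0.257), −3.48 for Bgn (0.439) and −0.75 for Tagln (0.199). Their signal counts reads of both strands, unlike the counts used here. For Tagln the edgeR fit gave −1.07 with the counts used here and −0.75 with reads of both strands.

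**Figure D2:**
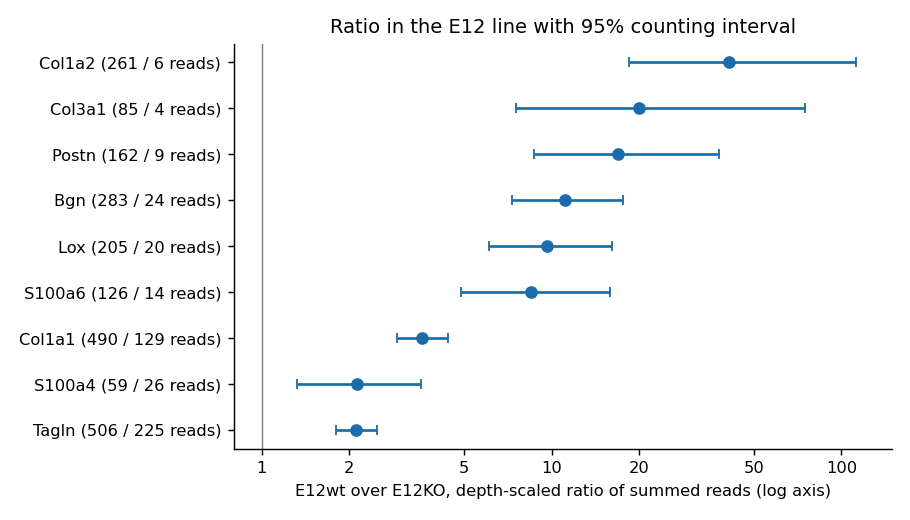
Ratio of reads in E12wt over E12KO (horizontal axis, logarithmic), scaled for depth, for the 9 genes, with 95% counting intervals as bars and the summed reads beside each name. The ratios run from 2.12 for Tagln to 41.0 for Col1a2.

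Per kilobase of transcript, the order of levels in E12wt was led by Tagln, at 2.44 ± 0.483 CPM per kilobase, and S100a6, at 1.32 ± 0.393 (mean ± SD, n = 3). S100a4 (0.919 ± 0.484) and Bgn (0.905 ± 0.183) came next and did not differ beyond their spread. Col1a1, at 0.638 ± 0.0423 CPM per kilobase, was followed by Postn (0.393 ± 0.162), Col1a2 (0.380 ± 0.123) and Lox (0.329 ± 0.139), which overlapped each other, and by Col3a1 (0.119 ± 0.0538). In E12KO only Tagln (1.16 ± 0.326), S100a4 (0.425 ± 0.138), Col1a1 (0.178 ± 0.0198) and S100a6 (0.157 ± 0.105) kept more than 0.1 CPM per kilobase.

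The 9 genes together made up 756, 740 and 681 reads in the E12wt libraries, or 15.7 to 18.1 CPM, and 162, 154 and 141 reads in the E12KO libraries, or 3.35 to 4.03 CPM. E47wt replicate 1 had 854 reads on them, at 23.4 CPM, although only E47KO replicate 2 had fewer gene reads in all. The other 2 E47wt libraries had 198 and 122 reads, or 4.26 and 2.60 CPM, and the E47KO libraries 269, 257 and 226 reads, or 6.42, 7.09 and 4.02 CPM. E47wt replicate 1 was above the other 5 E47 libraries for 8 of the 9 genes, as it was for 12% of the 16093 genes with at least 30 reads in that line. It was at least 4-fold above each of them for Col1a1, Col1a2, Col3a1 and Postn, 4 of the 9, and for 6 of those 16093 genes in all, or 0.0373%. This 4-fold limit was chosen after the values were seen. The 30-read limit counts E47wt replicate 1 too, so genes low elsewhere, such as Postn and Col1a2, entered through it. The 0.0373% is thus no measure of how unusual these genes are. For 7 of the 9 genes the highest 4 of the 12 libraries were the 3 of E12wt and E47wt replicate 1. The 2 other genes were Tagln and S100a4. The high places of E12wt follow in part from the choice of the genes. No share over all genes was taken for this order, and nothing is read from it. The wild types of both lines are of the same strain. E47wt replicates 2 and 3 lay below the lowest E12wt library for each of the 9 genes. The genes were chosen with E12wt on the high side, so nothing is read from this count either. Xist was at 890 CPM in E47wt replicate 1 and at 1114 CPM in E47wt replicate 3. The summed levels of the 9 genes in these libraries were the highest and the lowest of all 12. A part of sex in the levels of the 9 genes was not tested.

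**Figure D3:**
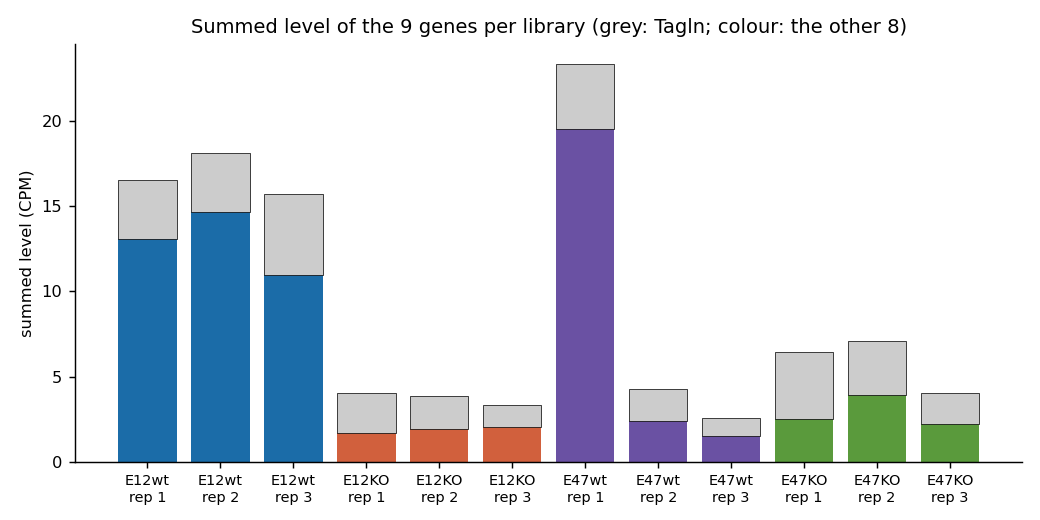
Summed level of the 9 genes in CPM (vertical axis, from 0) in each of the 12 libraries, with Tagln in grey and the other 8 genes in colour. E47wt replicate 1 reaches 23.4 CPM, the E12wt libraries 15.7 to 18.1 CPM, and the other 8 libraries at most 7.09 CPM.

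Whether these genes depend on E47 was tested in the E47 line, whose values did not enter their choice. Sex is not balanced in this contrast: Y transcripts were found in every E47KO library but only in replicate 2 of E47wt. Effects of sex and of genotype were not tested apart, and Bgn lies on chromosome X. No member was called: of the 9, 5 passed the low-count filter (Col1a1, Bgn, Lox, Tagln and S100a6), and 0 of these 5 passed, against 0.0134% of the 14965 genes tested and 0.00668% called lower (edgeR QL, the quasi-likelihood test, at a Benjamini-Hochberg (BH) adjusted p under 0.05 over all genes). At an unadjusted p under 0.05 the count was also 0 of 5, against 328 of the 14965 genes. DESeq2 called 0 of 8, against 6 of 18712 genes. With so few members tested, 0 calls do not show that they are unchanged. The fitted log2 fold changes, knockout over wild type, were −1.07 ± 0.82 (SE) for Col1a1, −0.98 ± 1.02 for Bgn, −1.26 ± 0.93 for Lox, −1.38 ± 1.06 for S100a6 and 0.39 ± 0.49 for Tagln, each with an edgeR QL BH-adjusted p of 0.971. Col1a2, Col3a1, Postn and S100a4 were too low for that filter. The groups overlapped for all 9 genes; they did not overlap for 7.89% of the genes tested, and all E47KO libraries were below all E47wt libraries for 3.87%.

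E47wt replicate 1 set the direction of most of these values. Without it the log2 fold change was 0.63 ± 0.38 (SE) for Col1a1, 0.86 ± 0.82 for Bgn, 0.47 ± 0.86 for S100a6, −0.25 ± 0.94 for Lox and 1.00 ± 0.44 for Tagln, each with an edgeR QL BH-adjusted p of 0.998. With the replicate number as a block, the values were −0.44 for Col1a1, −0.41 for Bgn, −1.13 for Lox, −0.93 for S100a6 and 0.49 for Tagln, and no call changed. That E47 libraries pair by number was taken from their correlations, and no label gives it. In the E12 line the fit without a block gave −1.83 ± 0.18 for Col1a1, −3.45 ± 0.28 for Bgn, −3.22 ± 0.46 for Lox, −3.04 ± 0.46 for S100a6 and −1.07 ± 0.25 for Tagln, and each of these stayed below 0 with any 1 library left out. The difference between the lines was not tested, since the E12 values chose the genes. In the authors' deposited table of the E47 line, 2 of the 9 are present, with log2 fold changes of −1.05 for Col1a1 (their SE 0.797) and 0.11 for Tagln (0.323). That table too counts reads of both strands, with which the edgeR fit gave 0.09 for Tagln.

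**Figure D4:**
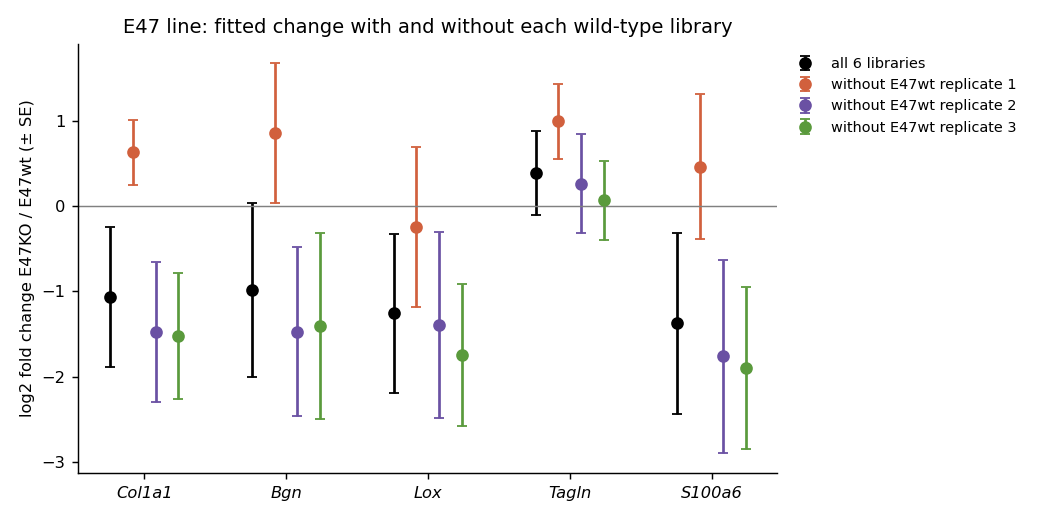
Fitted log2 fold change of E47KO over E47wt (vertical axis) with its SE for the 5 genes that passed the low-count filter, with all 6 libraries and without each wild-type library in turn. Without E47wt replicate 1 the values of Col1a1, Bgn and S100a6 lie above 0, at 0.63, 0.86 and 0.47.

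Other genes of the collagen matrix were read from 8 lists of 119 genes that leave out the members. Of their 87 genes tested in the E12 line, edgeR QL called 0, against 0.0407% of all genes. At an unadjusted p under 0.05 there were 7 higher and 9 lower, and DESeq2 called 2 higher and 2 lower. In the E47 line edgeR QL called 0 of 88, with 2 higher and 1 lower at an unadjusted p under 0.05, and DESeq2 called 0. Across all 16 lists used here, cell type markers included, edgeR QL called 0 of 133 genes in the E12 line and 0 of 135 in the E47 line. At an unadjusted p under 0.05 there were 13 higher and 17 lower in the E12 line and 4 higher and 4 lower in the E47 line. DESeq2 called 2 higher and 3 lower in the E12 line and 0 in the E47 line. All genes together had a median log2 fold change of 0.00 in the E12 line and −0.01 in the E47 line.

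Among the other fibrillar collagens, the 7 genes tested in the E12 line had a median log2 fold change of −0.12, and the 2 most abundant, Col5a2 and Col11a1, were at 0.40 ± 0.26 and −0.22 ± 0.11 (SE). Network, beaded and fibril-associated collagens were at a median of 0.17 over 8 genes, with the basement membrane chains Col4a1 and Col4a5 at 0.36 ± 0.14 and 0.24 ± 0.16. Collagen processing and crosslinking genes had a median of 0.06 over 20 genes. Among them P4hb, a subunit of the enzyme that hydroxylates proline, was at 0.10 ± 0.06, and Serpinh1, the collagen chaperone, at 0.32 ± 0.14.

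Small leucine-rich proteoglycans, the family of Bgn, were mostly near the floor: 3 of 12 were tested in the E12 line. Prelp was at 0.30 ± 0.25 and Ecm2 at 0.90 ± 0.25 (SE), while Dcn, the closest relative of Bgn, had 0 to 17 reads in any library. Matricellular and elastic fibre genes had a median of 0.18 over 17 genes, with tenascin C (Tnc) at 0.57 ± 0.16 and Fbln2 at 0.22 ± 0.16. Tnc averaged 864 CPM over the 12 libraries and Fbln2 667 CPM. Smooth muscle and myofibroblast genes had a median of −0.18 over 12 genes, with Tagln2 at −0.78 ± 0.26, Cald1 at 0.00 ± 0.09 and Acta2, smooth muscle actin, at −0.26 ± 0.30. In the S100 family the median was 0.22 over 6 genes, with S100a10 at 0.24 ± 0.11 and S100a16 at −0.15 ± 0.13.

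Genes of TGF-beta signalling, a pathway known to raise collagen transcription in mesenchymal cells, had a median of 0.10 over 14 genes in the E12 line and −0.02 over 14 in the E47 line. The receptor Tgfbr1 was at −0.01 ± 0.09 and the mediator Smad4 at −0.07 ± 0.06 (SE) in the E12 line. Of the matrix list genes, DESeq2 called Adamts3 lower and Tnc and Ecm2 higher in the E12 line. Adamts3, a procollagen protease, was at −0.83 ± 0.11 in the E12 line (edgeR QL, BH-adjusted p = 0.0686) and at −1.08 ± 0.28 in the E47 line.

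By its markers the culture was neural: Fabp7 averaged 2829 CPM and Ptprz1 2442 CPM over the 12 libraries, and the 10 stem cell markers summed to 9723 to 10960 CPM in E12wt, 10440 to 11020 CPM in E12KO, 10170 to 11560 CPM in E47wt and 10420 to 10940 CPM in E47KO. The 20 fibroblast and meningeal markers were mixed. In the E12 line 8 of them had reads enough to be tested: besides Fbln1 and Pdgfra, Prrx1 had 618 to 1015 reads in any library, Foxc1 183 to 361, Thy1 73 to 342, Crabp2 13 to 511, Mfap4 8 to 77 and Twist1 13 to 76. The other 12 were low in every library, E12wt and E47wt replicate 1 included. Of these, Foxc2 and Foxd1 had 0 to 1 read, Dpt 0 to 2, Twist2 0 to 3, Lum 0 to 4, Aldh1a2 0 to 4, Islr 0 to 6, Pdgfrb 1 to 13, Ogn 0 to 13, Dcn 0 to 17 and Slc6a13 1 to 38. Col6a3, a type VI collagen chain and the last of the 12, had 6, 29 and 25 reads in E12wt, 8, 3 and 7 in E12KO, 42, 7 and 5 in E47wt, and 6, 13 and 8 in E47KO. Slc6a13 went the other way in the E12 line, with 7, 3 and 1 reads in E12wt and 13, 12 and 9 in E12KO. It had 13, 10 and 30 reads in E47wt and 24, 28 and 38 in E47KO. E47wt replicate 1 held the highest number of reads of any library for Col6a3, Ogn (13), Lum (4) and Aldh1a2 (4), but not for the 8 markers that were tested. The list thus did not settle which cells hold the 9 transcripts, and the genes are called by their names here. The summed level of the list was 119 to 163 CPM in E12wt, 97.5 to 110 CPM in E12KO, 112 to 159 CPM in E47wt and 102 to 163 CPM in E47KO, and 112 CPM in E47wt replicate 1. Every E12wt library was above every E12KO library in this sum. Most of it was Fbln1, at a mean of 47.4 CPM, and Pdgfra, at 41.6 CPM, a receptor that oligodendrocyte precursors carry too. Pdgfra was at −1.34 ± 0.35 in the E12 line (SE, edgeR QL, BH-adjusted p = 0.507). Twist1, Thy1 and Foxc1 were above 0 there, at 0.94 ± 0.56, 0.67 ± 0.26 and 0.45 ± 0.18 (SE). Of the 8 markers tested in that line, 3 were below 0. The part of other cells in the levels of the 9 genes was not tested, and in bulk RNA fewer cells of a type and less RNA per cell cannot be told apart.

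Defining markers of vessel and immune cells were few. Among 8 pericyte markers, Rgs5, Kcnj8, Abcc9 and Higd1b had at most 8 reads in any library, and the list sum of 85.2 to 185 CPM came nearly all from Notch3 and Mcam, at 0.20 ± 0.18 and −0.49 ± 0.13 (SE) in the E12 line, where DESeq2 called Mcam lower and edgeR QL did not. The 8 endothelial markers summed to 5.04 to 6.45 CPM in E12wt and 6.08 to 7.15 CPM in E12KO, and to 7.44 CPM in E47wt replicate 1, above the 3.01 to 6.37 CPM of the other 5 E47 libraries. Most of this was Kdr and Tek, and Cdh5, Cldn5 and Tie1 had at most 4 reads. The 11 microglia and macrophage markers summed to 3.17 to 10.1 CPM, mostly from Cd68 and P2ry12, with 3.17 CPM in E47wt replicate 1, and Aif1, Trem2, Tyrobp and Cx3cr1 had at most 2 reads. The part of these cells in the levels of the 9 genes was not tested.

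Markers of the neural lineages were also set beside the members. The neuron list had a median log2 fold change of −0.38 over 7 genes in the E12 line, and the abundant Map2 and Dcx were at 0.03 ± 0.08 and −0.92 ± 0.36 (SE). The oligodendrocyte lineage list had a median of −0.64 over 8 genes, Olig1 at −0.10 ± 0.13 and Olig2 at −0.17 ± 0.19. Astrocyte markers had a median of 0.29 over 6 genes, with Aldh1l1 at −0.17 ± 0.61 and Slc1a2 at 0.23 ± 0.09. In E47wt replicate 1, neuron markers summed to 1265 CPM and oligodendrocyte lineage markers to 1111 CPM, against 1049 to 1242 CPM and 944 to 1418 CPM in the other 5 E47 libraries. In the E47 line the list medians were −0.14, 0.02 and 0.70 for neurons, oligodendrocyte lineage and astrocytes, and 0.22, 0.16, 0.10, 0.15, −0.05, 0.18 and 0.07 for the first 7 matrix lists in the order given above. The fibroblast, pericyte, endothelial, microglia and stem cell lists had medians of 0.19, 0.20, 0.52, −0.31 and 0.04 in the E12 line and of 0.29, 0.13, −0.10, 0.00 and −0.01 in the E47 line. The part of these lineages in the levels of the 9 genes was not tested.

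Genes most like the 9 across the 12 libraries were sought among 13609 others with a mean of at least 0.5 CPM, by Pearson correlation of log2 levels with the mean of the members' standardized levels. They included Glrx2 (0.888), Atmin (0.871), Rab2a (0.854), Fam45a (0.834), Smim10l2a (0.834), Nmnat2 (0.831), Akr1e1 (0.826), Zfp251 (0.810) and Mnat1 (0.798). Glrx2, the highest of these, ranged only from 37.2 to 45.5 CPM. These correlations describe 12 libraries of 4 groups, of which the E12 groups were used to choose the members.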

How the data were processed

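Stranded mRNA was sequenced in 12 libraries, per the labels' protocols. The submitters' processing notes list STAR 2.5, DESeq2, DESeq and build mm9; no annotation release is named. The deposited count files give reads per gene without strand and for each strand. Opposite-strand counts held 97.1 to 97.2% of strand-assigned gene reads and were used; 6.87 to 8.99% of reads in that column fell in no gene or were ambiguous and were left out. For each line the authors deposited a table of normalized signal of both strands, log2 fold changes, a score and p-values. Only its log2 fold changes and their SEs are quoted.

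Gene names came from GENCODE M21 (GRCm38) by Ensembl ID (32897 of 37620 named), as did principal transcript lengths. That build is not mm9, and no coordinate was taken from it; promoter windows and their coordinates come from RefSeq on GRCm38.p6. Each line was fitted in R 4.3.3 with edgeR 4.0.16 on its 6 libraries (low-count filter by group, TMM, quasi-likelihood F test, two-sided, prior count 0.125, Benjamini-Hochberg adjustment over all genes); the SE is the fold change over the root of F. CPM is TMM-scaled over 12 libraries. Counting intervals (95%) are exact binomial. The fits were tested on simulated data with 100 genes changed 2-fold and 100 changed 4-fold. In the E47 line 59% of the 2-fold and 98% of the 4-fold changes were recovered, and 6.55% of calls were false. In the E12 line the values were 90%, 98% and 8.74%. These rates are over all the genes changed in the simulation and need not hold for genes as low as the members. In the E47 fit the SE was 0.82 to 1.06 for Col1a1, Bgn, Lox and S100a6. A 4-fold change in these genes could thus go uncalled.

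The members and lists were chosen with earlier results of these data known. The text names all members, from each list the called genes or else the 2 most abundant, and the genes most like the members, of which 10 were sought and 1 is not reported here; other names were chosen after their values were seen. No 2 libraries of a group agreed within sampling noise (chi-square over its degrees of freedom 12.5 or more). Deviations of same-numbered E47wt and E47KO libraries from their group means correlated at 0.19, 0.26 and 0.52, so numbers were taken to pair the E47 libraries by this correlation, although no label says so. Alternatives were DESeq2 1.42.0, RLE size factors, no filter, reads of both strands, all 12 libraries in the fit, a replicate block, a prior count of 2, and each library left out.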

Additional observations from a re-analysis of the deposited data

How the results depend on the processing

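In the E12 line 6 of 14755 genes were called by edgeR QL. The count was 98 with DESeq2, 20 with no low-count filter, 2 with all 12 libraries in the fit, and 2 to 10 with each library left out, lowest without E12KO replicate 2 or 3 and highest without E12wt replicate 3. In the E47 line it was 2 of 14965, 6 with DESeq2, and 0 to 7 with each library left out, with 0 when E47wt replicate 3 was left out, 1 for E47wt replicate 1 and for E47KO replicate 1, and 7 for E47wt replicate 2. The cause was not tested. With a replicate block the counts were 4 and 2. Same-numbered E12 libraries correlated at 0.11, 0.084 and −0.054, so their numbers were not taken as pairs; E12wt replicates 2 and 3 each correlated best with an E12KO library of another number. No member was called in the E47 line under any of the 12 alternatives with a test, the block included. At an unadjusted p under 0.05 there were 2 of 9 with no filter (Col1a2 and Postn), against 495 of all 22674 genes. There were 2 of 9 with all 12 libraries in the fit, against 787 of 15277 genes. In that fit Col1a2, Col3a1, Postn and S100a4 passed the low-count filter with the reads of the E12 line. That line chose the members, so nothing is read from this count. DESeq2 had 1 of 8 (Postn), against 435 genes in all, with 18712 genes adjusted. Within E47wt, Col1a2 and Postn were high only in replicate 1. With each library left out, the E47 log2 fold change ran from −1.52 to 0.63 for Col1a1, −1.69 to 0.86 for Bgn and −2.32 to 0.47 for S100a6, each above 0 only without E47wt replicate 1. All 9 members stayed below 0 in the E12 line under each of the 13 alternatives, Tagln between −1.27 and −0.75 (the latter with reads of both strands), S100a4 between −1.41 and −0.61 (the latter without E12wt replicate 3) and Col3a1 between −4.56 and −3.14. Depth limits the low members: Col1a2, Postn and Col3a1 rest on 6, 9 and 4 reads in all of E12KO, so their fold changes depend on the prior count.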

Other observations

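Among genes with at least 30 reads over the 6 E47 libraries, 2 beside the 4 members stood at least 4-fold higher in E47wt replicate 1 than in each of the other 5 E47 libraries. Reads of E47wt replicate 1 itself count toward those 30. Il1rl1, which encodes the receptor of interleukin 33, had 46 reads in that library and 1 in the other 5 together, with 16, 18 and 30 reads in the E12wt libraries and 0, 1 and 0 in the E12KO libraries. Igf2, an imprinted growth factor, had 46 reads in E47wt replicate 1, 14 and 9 in E47wt replicates 2 and 3, and 11, 6 and 4 in E47KO. In the E12 line Igf2 had 54, 31 and 22 reads in wild type and 5, 5 and 15 in knockout.

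Other matrix genes, named after their values were seen, had too few reads to be tested in the E12 line. Aspn, Col8a1 and Ltbp2 were picked from many such genes, and others did not follow the members. Loxl1 had 11, 9 and 14 reads in E12wt and 10, 9 and 10 in E12KO. Efemp1 had 6, 5 and 3 reads in E12wt and 5, 9 and 5 in E12KO. Aspn had 3, 4 and 2 reads in E12wt, 0, 0 and 2 in E12KO, 5, 1 and 0 in E47wt, and 1, 0 and 0 in E47KO. Col8a1 had 8, 4 and 2 reads in E12wt, 0 in each E12KO library, 4, 1 and 0 in E47wt, and 1, 0 and 1 in E47KO. Ltbp2, which encodes a protein of elastic microfibrils, had 9, 7 and 10 reads in E12wt, 0, 1 and 0 in E12KO, 12, 0 and 0 in E47wt, and 1, 0 and 2 in E47KO. Dcn had 2, 9 and 2 reads in E12wt, 0, 1 and 5 in E12KO, 10, 7 and 7 in E47wt, and 9, 8 and 17 in E47KO, where its highest library was.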
